A study of Mus musculus with 16 samples.

Results

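CA3 pyramidal neurons were examined in single-nucleus RNA sequencing of the hippocampus of 16 female mice aged 9 months. Nuclei were taken as CA3 from their unique molecular identifiers (UMIs), each of which stands for 1 captured transcript molecule. A CA3 nucleus had 3 or more UMIs of Grik4, 5 or more of Iyd, Nectin3, Rerg and Ccbe1 together, 2 or more of Iyd and Rerg together and 1 or more of Slc17a7. It had at most 1 UMI of Gad1 and Gad2 together, of Prox1 and of Fibcd1. The rule kept 4405 of 147873 nuclei (2.98%), with 195 to 424 CA3 nuclei per mouse.

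The mice either carried intact Ch25h (Ch25h+/+) or were labelled as lacking it (Ch25h-/-), and within each genotype were either Tau- or Tau+. Each of the 4 groups held 4 mice, with a library per mouse. The title of the series places the study in the axis of the immune signalling protein STING, interferon and CH25H in tau pathology. The labels name neither the tau line, the promoter that drives it, nor the deleted part of Ch25h. These items limit what each group can stand for. All animals were female and of a single age.

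CA3 pyramidal neurons are excitatory. They receive the mossy fibres of dentate gyrus (DG) granule neurons, excite each other through recurrent collaterals and send the Schaffer collaterals to CA1. Tau, encoded by Mapt, binds microtubules and forms aggregates in tauopathies, in which the hippocampus is often affected. Ch25h encodes cholesterol 25-hydroxylase, which makes 25-hydroxycholesterol and is known as a target of interferon in macrophages.

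The label was checked against markers that the rule did not use. Levels are given as CPM, the UMIs of a gene summed over the CA3 nuclei of a library and scaled to the same total in every library. For the comparison, CA1 neurons (1961 nuclei) were taken by Fibcd1 and DG granule neurons (4064 nuclei) by Prox1. Of 14 other CA3 markers, 7 lay higher in every CA3 library than in any CA1 or DG library, with a median log2 ratio within libraries of 1 or more (CPM + 1) against both: Bok, Cpne4, Homer3, Cdh24, Sulf2, Galnt3 and Trps1. Cpne4, a calcium-dependent membrane-binding copine, had a median of 853 CPM in CA3, 24.2 in CA1 and 279 in DG. Sulf2, a heparan sulfate endosulfatase, had 99.6 CPM in CA3, 21.6 in CA1 and 4.74 in DG. Of the markers that did not stand apart, Coch had 2.88 CPM in CA3 and 2.21 in both CA1 and DG, and the serine protease Prss23 had 3.001 CPM in CA3, 1.08 in CA1 and 1.20 in DG.

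Markers of other cell types were present in CA3 sums at levels that varied by gene. Of 7 measured markers each, 1 of CA2, 1 of CA1 and 2 of DG granule neurons met the rule for lower in CA3. Summed over each list, the CA3 libraries had 93.2 to 116 CPM of CA2, 143 to 234 of CA1, 71.1 to 109 of DG granule and 164 to 261 of hilar mossy cell markers. Of 8 mossy cell markers, 1 (Csf2rb2) met the rule for higher in CA3. The 8 astrocyte markers summed to 324 to 437 CPM. Of these Slc1a2, a glutamate transporter, had a median of 357 CPM in CA3, 112 in CA1 and 169 in DG and met the rule for higher, while Gfap had 1.23 and Aldoc 2.24 CPM in CA3. Over the other lists, the sums were 131 to 264 CPM for oligodendrocyte, 81.0 to 135 for microglial, 21.5 to 62.7 for inhibitory neuron, 6.26 to 15.9 for endothelial and mural and 4.74 to 13.7 for oligodendrocyte precursor markers. The CA2 markers Amigo2 and Rgs14 had medians of 5.39 and 4.30 CPM in CA3. The DG marker Dsp had 0.303 CPM in CA3 against 49.3 in DG, and the CA1 marker Mpped1 had 5.40 against 193 in CA1. Of the markers of hilar mossy cells, Calb2 had 3.55 CPM and Drd2 1.90 CPM in CA3, where both had medians of 0 in CA1. Csf2rb2, another mossy cell marker, had 8.93 CPM in CA3 with a range of 3.25 to 28.6 over libraries, and 0 in the median of CA1 and DG. The part of mossy cells among the chosen nuclei, and of RNA from other cell types in the sums, was not tested.

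The rule's genes chose the nuclei, so their levels are a description. Grik4, a kainate receptor subunit, had a median of 16 UMIs per CA3 nucleus, with 5 and 36.8 UMIs at the 5th and 95th percentiles. Ccbe1, an extracellular matrix protein, had a median of 5, the adhesion molecule Nectin3 a median of 4 and the small GTPase Rerg a median of 3 UMIs. Iyd, iodotyrosine deiodinase, had a median of 0 and a 95th percentile of 2 UMIs. The closest limit was that of Iyd and Rerg together: 1100 CA3 nuclei (24.97%) sat exactly at it, and 992 nuclei missed membership by 1 UMI of it. At the Slc17a7 limit there were 514 members (11.7%) and 233 nuclei 1 UMI outside. At the Grik4 limit there were 71 members and 54 nuclei 1 UMI outside. At the limit of the 4 summed markers there were 166 members and 137 nuclei outside.

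CA3 nuclei had a median of 14864 UMIs per nucleus and 2875427 to 6560731 UMIs per library. The rule asks for set numbers of UMIs and so favours deep nuclei. Of 71785 nuclei with 5000 or more UMIs, 1012 met it after thinning to 5000. Within groups, the 24 pairs of libraries differed beyond sampling noise (chi-square per degree of freedom 2.53 to 7.58). Over all libraries, 2700 nuclear barcodes occurred in 2 or more libraries, of which 2 were CA3 in more than 1. The nuclei of highest Scrublet score, 0.8% per 1000 nuclei of a library, were marked as likely doublets, so their total was set in advance. They were 452 of 4405 CA3 nuclei and 11045 of all 147873 nuclei. In the nuclei outside CA3, the mean of each group was first subtracted. Every group therefore had to have libraries on both sides of the first principal component. This component separated the libraries into 2 sides of 8 (A and B), with 2 libraries of every group on each side. The sides were found in the data as variation within groups, so using them as a block takes out such variation by construction. Calls made only with the block are no independent support. Side A held replicates 1 and 2 and side B replicates 3 and 4 of every group, with replicates numbered by accession order, and the labels give no date or lane for them. CA3 sums, with group means also subtracted, fell on the same side in 16 of 16 libraries.

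Ch25h was checked first. In CA3 nuclei it had 0 UMIs in 8 of 8 Ch25h+/+ libraries, which allows up to 0.0963 CPM (3 counts over the group). It had 10 UMIs in all, over 7 of 8 libraries labelled Ch25h-/-. Over all nuclei, Ch25h had 10 to 39 UMIs in the Ch25h+/+ libraries and 12 to 33 in those labelled Ch25h-/-. The counts are 3' tags and the deleted part is not stated, so they check neither the labels nor the deletion. Interval and limit cover counting error only.

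Levels in CA3 were then set beside those in CA1 and DG. The classes were chosen by their transcripts, so these levels are a description with no test. Of 16121 genes measured, 176 (1.09%) were higher and 169 (1.05%) lower by the rule given for the markers. Gm32647, a gene model of unknown function, had medians of 1181 CPM in CA3, 46.4 in CA1 and 7.09 in DG. Trps1, a GATA-type transcriptional repressor, had 1428, 120 and 69.4 CPM. Spock1, a proteoglycan of the extracellular matrix, had 895, 121 and 39.4 CPM. The ranges over 16 libraries did not overlap for any of these.

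Genes of low level also stood apart. The protein kinase C isoform Prkcd had 27.3 CPM in CA3 against 1.06 in CA1 and 1.14 in DG. Cd109, a membrane-anchored co-receptor of TGF-beta, had 23.7 CPM in CA3, 0.242 in CA1 and 0.738 in DG. The growth factor Hgf had 18.5 CPM in CA3, 1.07 in CA1 and 0.537 in DG. The copine Cpne9 had 51.5, 3.85 and 6.10 CPM. Among the 25 genes of largest ratio were 3 olfactory receptor genes, Olfr553 (12.3 CPM), Olfr78 (10.6 CPM) and Olfr33 (10.5 CPM), each with a median of 0 in DG.

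Of 56 measured axon guidance genes, 5 were higher and 1 was lower in CA3. The netrin receptor Unc5c had 1606 CPM in CA3, 472 in CA1 and 413 in DG. The Slit receptor Robo1 had 802, 348 and 149 CPM. The ephrin receptor Ephb1 had 182 CPM in CA3, 16.01 in CA1 and 84.8 in DG, and Epha3 had 441, 162 and 131 CPM. The secreted cue Sema3d had 16.2, 2.72 and 1.999 CPM. The membrane-anchored netrin gene Ntng1 was the member lower in CA3, with 95.5 CPM against 463 and 527.

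Genes of glutamate receptors and their auxiliary subunits differed by member. Neto1, an auxiliary subunit of kainate receptors, had 720 CPM in CA3, 182 in CA1 and 189 in DG, and was the member higher of 6 measured. Of 31 measured genes of AMPA and NMDA receptors and auxiliary subunits, 0 were higher and 5 lower: Grin3a, Cnih3, Shisa9, Gsg1l and Olfm2. The AMPA receptor auxiliary subunit Cnih3 had 12.4 CPM in CA3 against 83.6 in CA1 and 146 in DG. Homer3, a postsynaptic scaffold of group I metabotropic glutamate receptors, had 57.0, 7.22 and 12.1 CPM, while the metabotropic receptor Grm3 had 28.7, 113 and 67.8 CPM.

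Of 46 measured potassium channel genes, 1 was higher in CA3 and 5 were lower (Kcnd2, Kcnh7, Kcnj9, Kcnk9 and Kcnn3). The M-type potassium channel Kcnq5 had 3926 CPM in CA3, 768 in CA1 and 134 in DG. The A-type channel Kcnd2 was lower in CA3, with 1690 against 3464 and 3609 CPM. The P/Q-type calcium channel subunit Cacna1a had 1239, 592 and 459 CPM. The granin Chgb, of dense-core vesicles, had 152, 46.2 and 51.7 CPM. Cyp46a1, the neuronal enzyme that makes 24S-hydroxycholesterol, was lower in CA3, with 13.8 CPM against 31.2 in both. Of the genes lower in CA3, the calcium-binding protein Calb1 had 2.30 CPM against 48.9 in CA1 and 136 in DG.

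**Figure D1:**
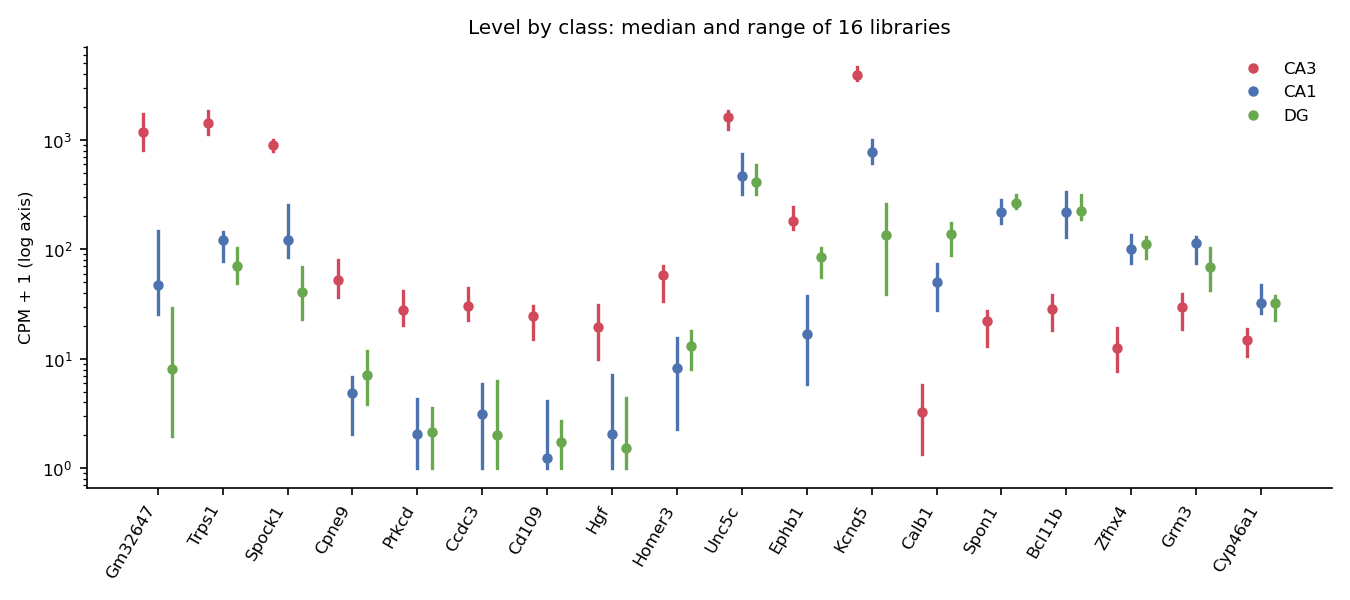
Levels of 18 genes in CA3, CA1 and DG nuclei, on a log axis of CPM + 1; dots are medians and lines the range of 16 libraries. The genes from Gm32647 to Kcnq5 lie higher in CA3 and the genes from Calb1 to Cyp46a1 lie lower, with no overlap of the ranges with either class.

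CA3 nuclei also differed among themselves. For each of 8160 genes the variance of counts between nuclei, scaled to a common depth, was divided by its Poisson expectation, and the median ratio over genes was 1.15. At equal relative spread this ratio rises with the level of a gene, so it does not rank genes by relative spread. The nuclear RNA Malat1 had the largest ratio, 243, at a mean of 1692 UMIs per nucleus. Gm32647 followed with 39.8 (24.9 to 48.4 over libraries), and Sgcd, a sarcoglycan, with 31.2. Kcnq5 had 26.3. The dipeptidyl peptidase-like gene Dpp10 had 21.8 at a mean of 3.71 UMIs, and the GABA-A receptor subunit Gabrg3 21.7 at 3.95 UMIs.

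Several of these genes opposed each other across nuclei. Between Galntl6, a glycosyltransferase-like gene, and the adhesion molecule Cadm2 the median rank correlation over 16 libraries was -0.59 (-0.65 to -0.49). Between Gabrg3 and the secreted factor Tafa1 it was -0.57 (-0.64 to -0.49). Gabrg3 and St18, a zinc-finger gene that also serves as an oligodendrocyte marker, went together across nuclei, with 0.66 (0.57 to 0.73). After scaling, Gabrg3 had a median of 0 UMIs and a 90th percentile of 11.1, and Tafa1 had a 10th percentile of 0.851 and a 90th percentile of 53.1. The points are nuclei of the same library and share its depth and free RNA, so the correlations are a description.

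The number of CA3 nuclei was compared between groups. They made up 2.54 ± 0.474% of nuclei in the Tau- and 2.87 ± 0.211% of the Tau+ libraries of Ch25h+/+ mice (SD, n = 4 each). In Ch25h-/- mice the shares were 3.46 ± 0.744% in Tau- and 3.13 ± 0.669% in Tau+ libraries. The groups overlapped. In 18 two-sided exact permutation tests of the share, the ratio to CA1 and the depth, 0 passed an adjusted p of 0.05 (Benjamini-Hochberg over the 18). An exact permutation test of 4 against 4 libraries cannot give a p under 0.0286. Such a test could not pass the adjustment by itself, so its failure says little. For the share, the smallest p was that of Ch25h loss over both tau states, 2.71 ± 0.382% against 3.30 ± 0.680% (n = 8 and 8, exact permutation p = 0.0584, adjusted p = 0.257). By side, the Ch25h+/+ and Ch25h-/- shares were 2.78 ± 0.353% and 2.97 ± 0.385% on side A, and 2.64 ± 0.451% and 3.62 ± 0.809% on side B (n = 4 each). Tau status gave 3.004 ± 0.759% in Tau- against 2.999 ± 0.479% in Tau+ libraries (exact permutation p = 0.983, adjusted p = 0.983). A share can move with the number of other nuclei, and this was not tested. It can also move with depth, as the rule asks for set numbers of UMIs. Among nuclei thinned to 5000 UMIs, the shares were 1.37 ± 0.279% in Ch25h+/+ Tau- and 1.43 ± 0.288% in Ch25h+/+ Tau+ libraries. In Ch25h-/- mice they were 1.44 ± 0.245% in Tau- and 1.42 ± 0.317% in Tau+ libraries (SD, n = 4 each). The part of depth in the shares was not tested.

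The log2 number of CA3 nuclei per CA1 nucleus was 1.35 ± 0.439 in Tau- and 1.06 ± 0.455 in Tau+ libraries (n = 8 and 8, exact permutation p = 0.222, adjusted p = 0.561). The depth of CA3 nuclei had the smallest unadjusted p of the 18 tests. The median UMIs were 13013 ± 923 in Ch25h+/+ Tau- and 15278 ± 1815 in Ch25h+/+ Tau+, and all 4 Tau+ libraries lay above the 4 Tau- libraries. The exact permutation p was 0.0286, the smallest that 4 against 4 can give, and 0.257 after adjustment. Over both genotypes the values were 14107 ± 1674 and 16004 ± 2117 (n = 8 and 8, exact permutation p = 0.0429, adjusted p = 0.257). On side A the Tau- libraries had 13739 ± 2018 and the Tau+ libraries 17289 ± 2366 UMIs, and on side B 14476 ± 1451 and 14719 ± 671 (SD, n = 4). With the labels permuted within the sides, the exact permutation test gave an adjusted p of 0.333. In Ch25h+/+ mice the median UMIs of CA1 nuclei were 8916 ± 875 in Tau- and 10497 ± 867 in Tau+ libraries. For DG nuclei they were 7651 ± 215 and 8566 ± 931, and for all nuclei 4630.5 ± 466 and 4529 ± 469 (SD, n = 4). The depth of these other classes was not tested. Deeper nuclei and more transcripts per nucleus cannot be told apart here.

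**Figure D2:**
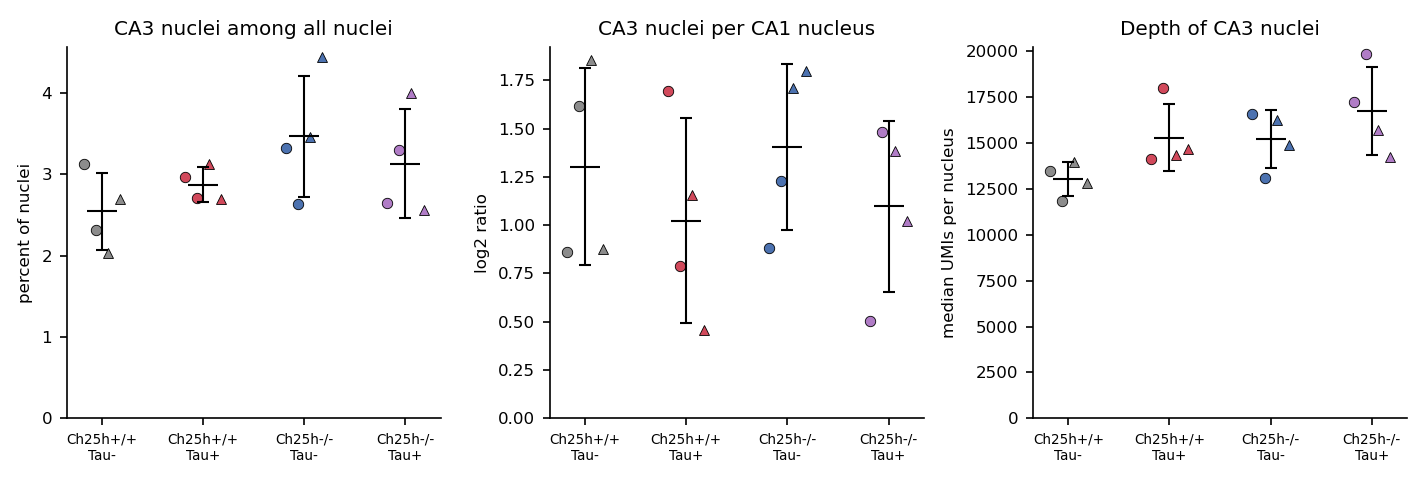
Share of CA3 nuclei (left), log2 number of CA3 nuclei per CA1 nucleus (middle) and median UMIs per CA3 nucleus (right) by group; each point is a library, circles and triangles mark the 2 sides of the split, and bars are mean ± SD (n = 4). The groups overlap in share and ratio, and the 4 Ch25h+/+ Tau+ libraries lie above the 4 Ch25h+/+ Tau- libraries in depth.

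Tau status was tested gene by gene in CA3, over both genotypes, with edgeR's quasi-likelihood test on the summed counts. Of 13776 genes tested, 5 passed an adjusted p of 0.05 (0.0363%; 4 higher and 1 lower in Tau+), and 9.63% had an unadjusted p under 0.05. Within Ch25h+/+ mice 2 genes passed (0.0145%; unadjusted 5.51%), and within Ch25h-/- mice 4 (0.029%; unadjusted 8.25%). The median log2 change of all genes tested was 0.0011.

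Gm43049 separated the tau groups without overlap. It had 92.7, 121.6, 96.3 and 103.3 CPM in the Ch25h+/+ Tau+ libraries and 103.0, 111.2, 96.0 and 97.8 in the Ch25h-/- Tau+ libraries. In the Tau- libraries it had 0 in 6 and 0.205 and 0.152 CPM in the other 2. This long intergenic RNA lies at chromosome 3, 140692038 to 140760704 (GRCm38). It had 2 UMIs in Tau- and 3783 in Tau+ libraries, a ratio of 1748 (95% counting interval 484 to 14439; edgeR adjusted p = 3.5e-16). In CA1 its medians were 0 and 109.6 CPM, in DG 0 and 55.3 CPM, and in the free RNA of barcodes under 100 UMIs 0 and 57.2 CPM. The difference thus stood in all of these classes.

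The neighbouring Gm32754, at chromosome 3, 140904998 to 140917459, was at 0 in 8 of 8 Tau- libraries. It had 6.43, 6.56, 8.30 and 6.47 CPM in Ch25h+/+ Tau+ and 9.495, 9.11, 6.06 and 8.72 in Ch25h-/- Tau+ libraries, at least 85.9-fold higher (edgeR adjusted p = 1.1e-07; against 3 counts over the group). 4930590L14Rik, in the same neighbourhood, had 0 UMIs in Tau- and 74 in Tau+ libraries, at least 22.8-fold higher. It did not enter the test, as its counts were too low. Among 39 genes within 5 Mb of Gm43049, itself included, 11 (28.2%) had an unadjusted p under 0.05, against 9.58% of the rest. Within 10 Mb it was 14 of 81 (17.3%, against 9.59%) and within 20 Mb 29 of 157 (18.5%, against 9.53%). These chromosome 3 genes were known from earlier results of these data.

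Prnp, the prion protein gene, rose in Tau+ CA3 nuclei. It had 60.8, 49.6, 76.1 and 63.4 CPM in Ch25h+/+ Tau-, and 52.0, 54.3, 64.3 and 70.9 in Ch25h-/- Tau-. It had 96.4, 86.7, 98.4 and 105.9 CPM in Ch25h+/+ Tau+, and 103.0, 100.4, 115.5 and 130.2 in Ch25h-/- Tau+. The 8 Tau+ libraries lay above the 8 Tau- libraries (log2 change 0.76 ± 0.088 SE, edgeR adjusted p = 1.5e-04). In Ch25h-/- mice the change was 0.89 ± 0.12 (edgeR adjusted p = 0.0025). In Ch25h+/+ mice it was 0.64 ± 0.13 and did not pass (edgeR adjusted p = 0.27). It passed there with the side of the split as a block (edgeR adjusted p = 7.3e-04), without the filter on low counts (edgeR adjusted p = 0.0070) and with DESeq2 (adjusted p = 0.014). In CA1 the medians were 101.5 CPM in Tau- and 157 CPM in Tau+, and in DG 67.9 and 112 CPM. In free RNA they were 400 and 369 CPM. The counts are 3' tags and the labels name no promoter, so whether all come from the Prnp gene itself was not tested.

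Homer3, higher in CA3 than in its neighbours, also rose in Tau+ libraries. Its level was 33.6, 40.7 and 63.8 CPM (lowest, median, highest of 8) in Tau- and 56.9, 63.8 and 67.8 CPM in Tau+ libraries. The groups overlapped through Ch25h+/+ Tau- replicate 1, at 63.8 CPM. The log2 change was 0.56 ± 0.096 SE (edgeR adjusted p = 0.031). In CA1 the medians were 6.01 and 9.10 CPM. In DG they were 9.91 and 15.0 CPM, and in free RNA 16.2 and 27.0 CPM.

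Pnmal2, a gene of the paraneoplastic antigen family, fell. It had 19.8, 27.0 and 36.0 CPM in Tau- and 12.6, 14.5 and 20.3 CPM in Tau+ libraries, with an overlap of the lowest Tau- and the highest Tau+ library. The log2 change was -0.82 ± 0.14 SE (edgeR adjusted p = 0.021). Its free RNA moved the same way, from 99.7 to 72.7 CPM, above its level in the nuclei. The part of free RNA in the change was not tested. The call of Homer3 was lost on leaving out any of 10 libraries (edgeR adjusted p up to 0.10) and that of Pnmal2 on leaving out any of 4 (up to 0.081). The Homer3 call was also lost under a stricter rule for CA3 nuclei (log2 0.48, edgeR adjusted p = 0.11) and on side A alone (0.53, edgeR adjusted p = 0.35), and that of Pnmal2 on side A alone (-0.68, edgeR adjusted p = 0.24). The calls of Gm43049, Gm32754 and Prnp held without any 1 library.

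Ephb1, the ephrin receptor described above, was called for tau status in Ch25h-/- mice. In Ch25h-/- Tau- it had 167, 155, 146 and 156 CPM, and in Ch25h-/- Tau+ 224, 245, 222 and 254 CPM, with no overlap, as had 4.88% of the genes tested. The log2 change was 0.60 ± 0.094 SE (edgeR adjusted p = 0.012). In Ch25h+/+ mice it had 157 to 212 CPM in Tau- and 165 to 210 CPM in Tau+ libraries. The difference between the genotypes (log2 0.68 ± 0.13 SE) did not pass with edgeR (adjusted p = 0.77) and passed with DESeq2 (adjusted p = 0.037). The change in Ch25h-/- mice lost its call without any of 5 libraries (edgeR adjusted p up to 0.10) and on each side alone (0.22 on side A and 0.093 on side B). Efnb2, an ephrin ligand of this receptor class, had 16.8 to 18.9 CPM in Ch25h-/- Tau- and 9.495 to 10.97 in Ch25h-/- Tau+ libraries, and did not pass (edgeR adjusted p = 0.10). Efnb2 passed there with the side as a block (edgeR adjusted p = 0.036), without the filter (edgeR adjusted p = 0.043) and with DESeq2 (adjusted p = 0.012).

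Other genes with small p missed the threshold over both genotypes but passed it under alternatives. The complement gene C4b had 0, 0.0934 and 0.759 CPM in Tau- and 0.337, 2.47 and 3.21 CPM in Tau+ libraries (edgeR adjusted p = 0.070; 0.015 with the side as a block, 0.0012 without the filter, and 0.0044 with DESeq2). Its free RNA was 17.3 and 78.3 CPM, far above the level in CA3 nuclei. Camk2n1, an inhibitor of CaM kinase II, had 25.8, 29.4 and 45.3 CPM and 15.8, 21.5 and 26.0 CPM (edgeR adjusted p = 0.11; 0.0038, 0.0083 and, with DESeq2, 0.0080 in the same order). The 14-3-3 protein gene Ywhab had 39.5 to 52.5 CPM in Tau- and 29.6 to 38.8 CPM in Tau+ libraries, with no overlap (edgeR adjusted p = 0.11; 0.019, 0.041 and, with DESeq2, 0.014). Over both genotypes 12 genes had no overlap between the 8 Tau- and 8 Tau+ libraries (0.0871% of those tested). Mapt had 355 to 472 CPM in Tau- and 394 to 493 in Tau+ libraries (log2 0.12 ± 0.062 SE, edgeR adjusted p = 0.57). Reads were aligned to the mouse genome and the labels do not name the tau line. Whether the Mapt counts include transcripts of an introduced tau gene therefore cannot be told.

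**Figure D3:**
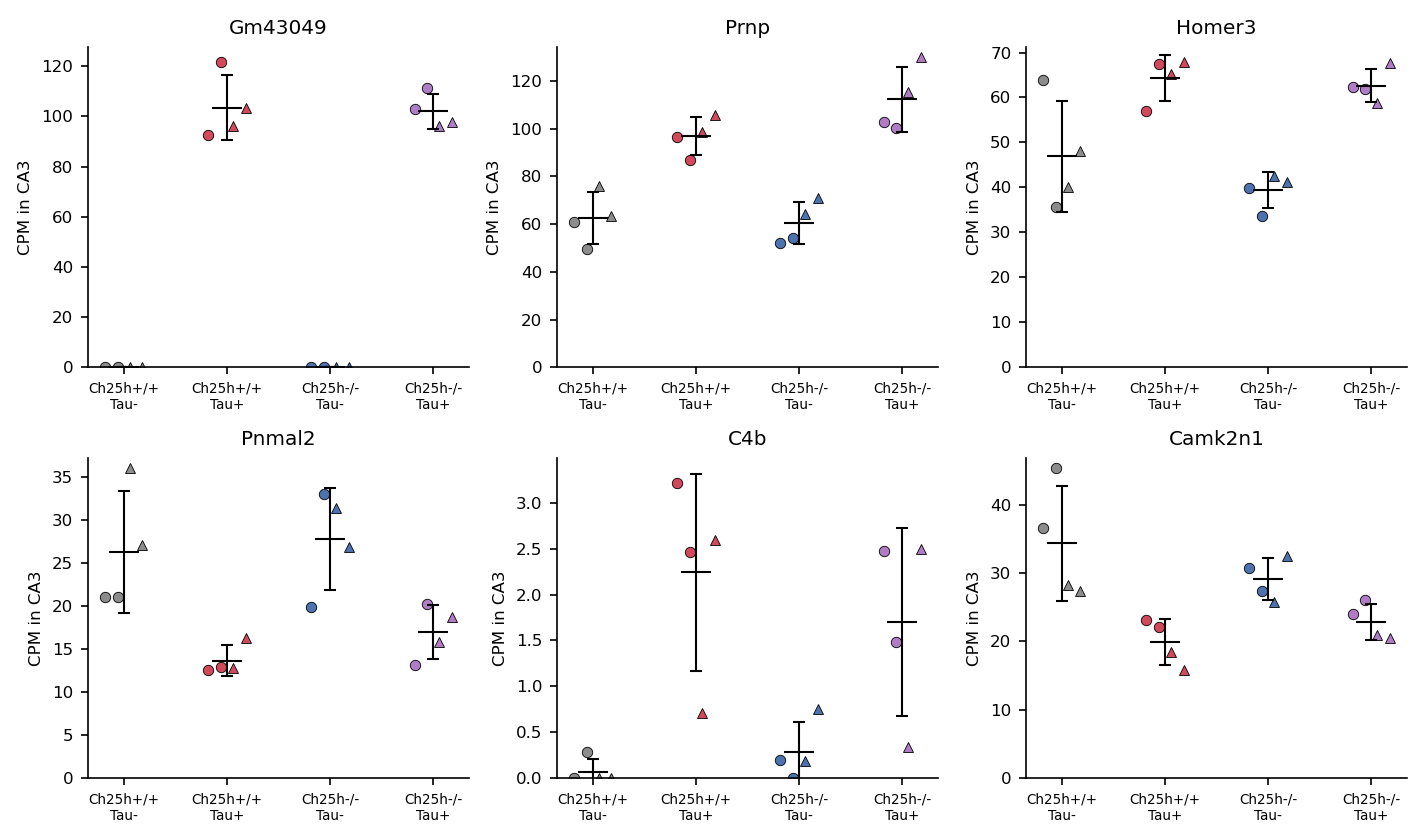
CPM in CA3 of 6 genes by group; each point is a library, circles and triangles mark the sides of the split, and bars are mean ± SD (n = 4). Gm43049 and Prnp separate Tau+ from Tau- libraries, and Homer3, Pnmal2, C4b and Camk2n1 overlap.

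With the side of the split as a block, 51 genes passed for tau status over both genotypes (0.37%; 16 higher and 35 lower), among them the 5 above. The sides were drawn from variation within groups of the same libraries, so the larger count is no independent support. Of the lower genes, Atp6v0c, which encodes a subunit of the vacuolar proton pump, had a log2 change of -0.57 (edgeR adjusted p = 0.00502), Nr1d2, a nuclear receptor, -0.43, and Ciart, a transcriptional repressor, -0.81. The transcription factor Arntl was higher (log2 0.36). The mitochondrially encoded mt-Nd2, mt-Nd3 and mt-Nd4 were also lower. These genes were chosen for the text after their values were seen, from no list. The median percentage of mitochondrial UMIs per CA3 nucleus had medians over libraries of 0.0417% and 0.0538% in the Ch25h+/+ and Ch25h-/- Tau- groups and 0.0192% and 0.0161% in the Tau+ groups, and its part in these changes was not tested. Of the 35 lower genes, 30 (85.7%) had a higher CPM in free RNA than in CA3 nuclei, against 64.9% of all genes tested, and in 34 of 35 free RNA was lower in Tau+ libraries (median log2 ratio -0.44), as in 6102 of all 13776 tested. Of the 16 higher genes, 9 (56.2%) had a higher CPM in free RNA, and in 1 free RNA was lower in Tau+ libraries (median log2 ratio 0.36). The part of free RNA in these changes was not tested.

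Interferon-stimulated genes are induced by type I interferon. Of 42 listed, 40 were in the files and had a UMI in CA3. The mean CPM was higher in Tau+ for 38 of these and lower for 2, where 52.7% of all 25921 genes with a UMI were higher. The median log2 change was 0.80 over 37 genes (genes at 0 in a group at their bound), beside 0.016 over all genes. None passed singly with the low-count filter, which kept 16 of the list. Their summed level was 108, 117 and 121 CPM in Tau- libraries and 106, 164 and 267 CPM in Tau+ libraries (lowest, median, highest of 8). By group it was 116 ± 3.09 CPM in Tau- and 144 ± 40.1 in Tau+ libraries of Ch25h+/+ mice, and 116 ± 5.42 and 201 ± 62.0 CPM in those of Ch25h-/- mice (SD, n = 4). In Ch25h-/- mice the 4 Tau+ libraries (126 to 267 CPM) lay above the 4 Tau- libraries (108 to 120 CPM). In Ch25h+/+ mice they overlapped, at 106 to 198 CPM in Tau+ and 114 to 121 CPM in Tau- libraries. Whether the genotypes differ in this was not tested.

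Among these genes, Ifit1, which binds viral RNA, had 0.577, 1.28 and 3.23 CPM in Tau- and 1.04, 5.85 and 21.3 CPM in Tau+ libraries. Oasl2, of the oligoadenylate synthetase family, had 1 UMI in Tau- and 90 in Tau+ libraries, in 6 of 8 of them (ratio 83.2, 95% counting interval 14.6 to 3321). The RNA-sensing kinase Eif2ak2 had medians of 4.46 and 8.33 CPM (edgeR adjusted p = 0.28). The ratio of the summed level was 0.79 (log2) on side A of the split and 0.32 on side B.

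The same sum was higher in Tau+ free RNA, at 217 and 394 CPM in the median. In CA1 its medians were 129 and 157 CPM, and in DG 81.1 and 115 CPM. The summed microglial markers in CA3 nuclei were 81.0 to 135 CPM in Tau- and 105 to 134 in Tau+ libraries, with the microglial genes C1qa and Tmem119 at medians of 1.15 and 0.229 CPM. The part of free RNA or of microglial RNA in the sum was not tested. The list was chosen with earlier results of these data known.

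**Figure D4:**
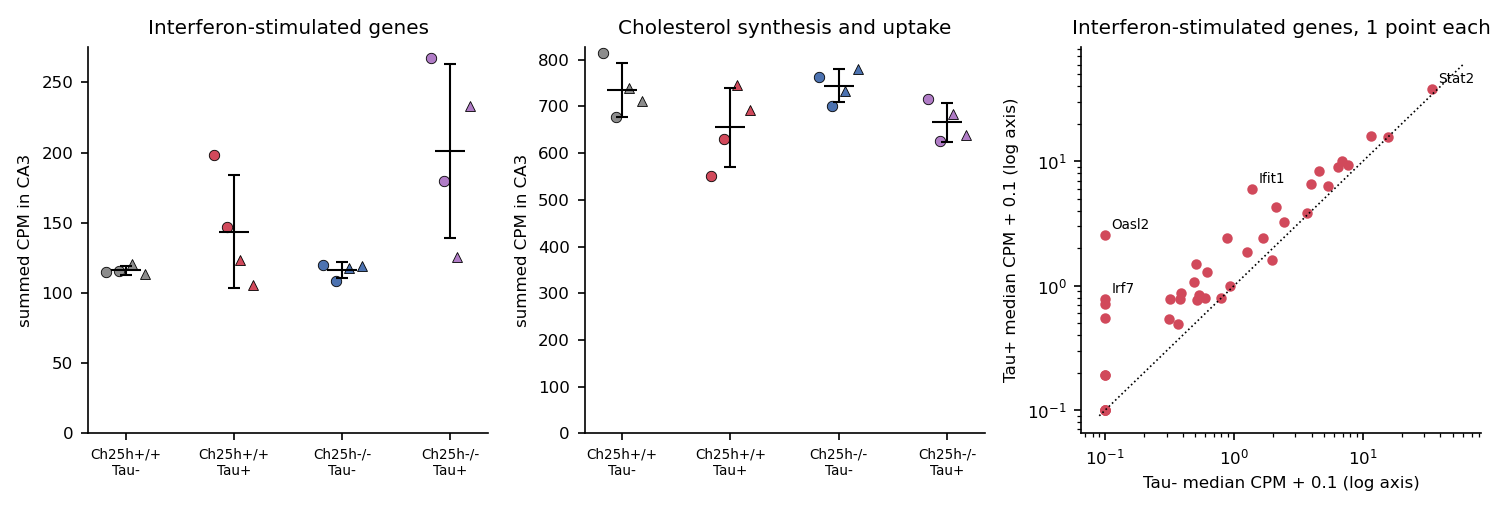
Summed CPM in CA3 of the interferon-stimulated (left) and cholesterol (middle) genes by group, with points as libraries, circles and triangles as sides and bars as mean ± SD (n = 4), and the Tau+ against the Tau- median CPM + 0.1 of each interferon-stimulated gene (right, log axes, dotted line at equal levels). Most genes lie above the line, and the Tau+ sums spread from 106 to 267 CPM.

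Cholesterol genes were in the opposite direction. Of 31 with a UMI, 7 had a higher and 24 a lower mean in Tau+ libraries (median log2 change -0.26 over 30 genes). Cyp51, of the late steps of synthesis, had a log2 change of -0.36 ± 0.10 SE (edgeR adjusted p = 0.23). The summed level of the cholesterol genes was 677, 737 and 814 CPM in Tau- and 551, 661 and 746 CPM in Tau+ libraries, which overlapped. In free RNA it was 1423 and 1187 CPM in the median. Of the 27 genes of oxysterols, LXR and efflux, 18 were higher and 9 lower (median log2 change 0.03), and none passed.

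Of 69 nuclear-encoded genes of the respiratory chain, 15 were higher and 54 lower in the mean (median log2 change -0.14), with Ndufa4 at -0.59 ± 0.16 SE (edgeR adjusted p = 0.23; 0.0088 with the side as a block). In free RNA their sum had medians of 7950 CPM in Tau- and 5960 CPM in Tau+ libraries. The heat-shock chaperones had 5 higher and 22 lower (median -0.17), with Hspa8 at -0.53 ± 0.14 SE (edgeR adjusted p = 0.23). In free RNA their sum had medians of 2845 CPM in Tau- and 2124 CPM in Tau+ libraries, and its part was not tested. The immediate early genes, marks of recent activity, had 6 higher and 14 lower (median -0.17), with Egr1 at -0.57 ± 0.18 SE (edgeR adjusted p = 0.29). The 36 mossy fibre synapse genes had 17 higher and 19 lower (median 0.0020), with the C1q-like organizer C1ql3 at -0.72 ± 0.16 SE (edgeR adjusted p = 0.14). C1ql3 passed with the side as a block (edgeR adjusted p = 0.044), without the filter (edgeR adjusted p = 0.034) and with DESeq2 (adjusted p = 0.037). The genes of AMPA and NMDA receptors and auxiliary subunits had 12 higher and 21 lower (median -0.034). The 42 genes of microtubule-associated proteins and tau kinases had 16 higher and 26 lower (median -0.013). The CaM kinase gene Camk2d had -0.65 over both genotypes (edgeR adjusted p = 0.16; DESeq2 adjusted p = 0.025). The casein kinase gene Csnk1e had -0.84 in Ch25h-/- mice (edgeR adjusted p = 0.24; 0.037 with the side as a block, and 0.044 with DESeq2).

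The remaining lists had medians between -0.11 and 0.089. Of the kainate receptor genes 2 were higher and 5 lower, of the metabotropic glutamate receptor genes 4 and 6, of the GABA receptor genes 6 and 9, and of the axon guidance genes 27 and 30. Of the potassium channel genes 28 were higher and 19 lower, of the sodium, calcium and HCN channel genes 17 and 15, and of the synaptic vesicle genes 23 and 28. Of the neuropeptide genes 8 were higher and 17 lower, of the stress and injury markers 11 and 8, and of the genes of cGAS, STING and the interferon receptors 11 and 3. Over both genotypes, edgeR with the filter and without the block called Homer3 of these lists. With the block it also called the axon guidance genes Unc5c and Efnb2 and the stress and injury marker C4b (edgeR adjusted p = 0.041, 0.046 and 0.015). Without the filter Unc5c (edgeR adjusted p = 0.040) and C4b passed, and with DESeq2 Unc5c (adjusted p = 0.046), Efnb2 (0.049), C4b and the metabotropic receptor Grm8 (0.019). Within Ch25h-/- mice Ephb1 was called, as given above.

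Ch25h loss was tested in the same way over both tau states. Of 13776 genes tested, 3 passed (0.0218%; 2 higher and 1 lower in libraries labelled Ch25h-/-), and 2.73% had an unadjusted p under 0.05. Within Tau+ mice 2 genes passed (0.0145%; unadjusted 3.4%), and within Tau- mice 1 (0.00726%; unadjusted 2.89%). All 3 genes lie on chromosome 19, as does Ch25h.

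Pyroxd2, a pyridine nucleotide-disulphide oxidoreductase, fell. It had 6.01, 3.42, 3.71 and 2.88 CPM in Ch25h+/+ Tau- and 5.05, 5.54, 5.93 and 6.73 in Ch25h+/+ Tau+. In libraries labelled Ch25h-/- it had 0.205, 0.538, 0.747 and 0.304 CPM in Tau- and 0.413, 0.558, 0.674 and 0.311 in Tau+. No library overlapped over both tau states, as for 0.0145% of the genes tested (2.58% within Tau+ and 1.95% within Tau- mice; log2 change -3.28 ± 0.26 SE, edgeR adjusted p = 1.1e-06). The gene lies at chromosome 19, 42725858 to 42752775, 8.25 Mb from Ch25h. CA1 had medians of 5.62 and 0.736 CPM and DG 6.13 and 0.689 CPM. In free RNA it had 8.28 and 1.53 CPM.

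Gm35867, a long intergenic RNA at chromosome 19, 45058841 to 45110342, rose. It had 0.501, 1.15 and 2.57 CPM in Ch25h+/+ libraries and 2.96, 4.52 and 6.90 in those labelled Ch25h-/-, with no overlap (log2 change 1.97 ± 0.26 SE, edgeR adjusted p = 0.0016). Arl3, a small GTPase of ciliary trafficking, rose from 48.9, 55.3 and 74.4 CPM to 72.4, 82.4 and 90.6 CPM, with an overlap at Ch25h+/+ Tau- replicate 4 (log2 change 0.49 ± 0.085 SE, edgeR adjusted p = 0.047). The call of Arl3 was lost on leaving out any of 13 libraries (edgeR adjusted p up to 0.14), under the stricter rule (log2 0.46, edgeR adjusted p = 0.082) and on side B alone (0.44, edgeR adjusted p = 0.78). Over both tau states the calls of Pyroxd2 and Gm35867 held without any 1 library, and that of Gm35867 was lost on side A alone (log2 1.79, edgeR adjusted p = 0.70). Within Tau+ mice the call of Gm35867 was lost without any of 6 libraries (edgeR adjusted p up to 0.15), under the stricter rule and on each side alone. The Pyroxd2 call was lost on each side alone within either tau state. Within Tau- mice it was also lost under the stricter rule and with only the groups compared.

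Other genes of the chromosome had small p. The ceramidase Asah2, 2.49 Mb from Ch25h, had 7.51 to 14.1 CPM in Ch25h+/+ and 5.32 to 7.66 CPM in libraries labelled Ch25h-/- (edgeR adjusted p = 0.059). Asah2 passed with the side as a block (edgeR adjusted p = 0.049), without the filter (edgeR adjusted p = 0.029) and with DESeq2 (adjusted p = 0.0088). Gm960, at 4625734 to 4698668 and outside the window of 20 Mb around Ch25h, had 9.01 to 37.9 and 5.65 to 10.97 CPM (edgeR adjusted p = 0.059; DESeq2 adjusted p = 3.3e-06). Of 219 genes tested within 20 Mb of Ch25h, 28 (12.8%) had an unadjusted p under 0.05, against 2.57% of the rest. Within 5 Mb it was 5 of 44 (11.4%, against 2.70%) and within 10 Mb 10 of 113 (8.85%, against 2.68%). A linked stretch of another strain's chromosome and an effect of the deletion cannot be told apart by these groups.

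The summed oligodendrocyte markers in CA3 nuclei were 227 ± 18.3 CPM in Ch25h+/+ Tau- and 166 ± 25.5 in Ch25h-/- Tau- (SD, n = 4), and 216 ± 39.2 and 208 ± 28.6 CPM in the Tau+ groups. The summed interferon-stimulated genes overlapped between Ch25h genotypes in each tau state, at 116 CPM in both Tau- groups and 144 ± 40.1 and 201 ± 62.0 CPM in the Tau+ groups, and none passed singly.

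**Figure D5:**
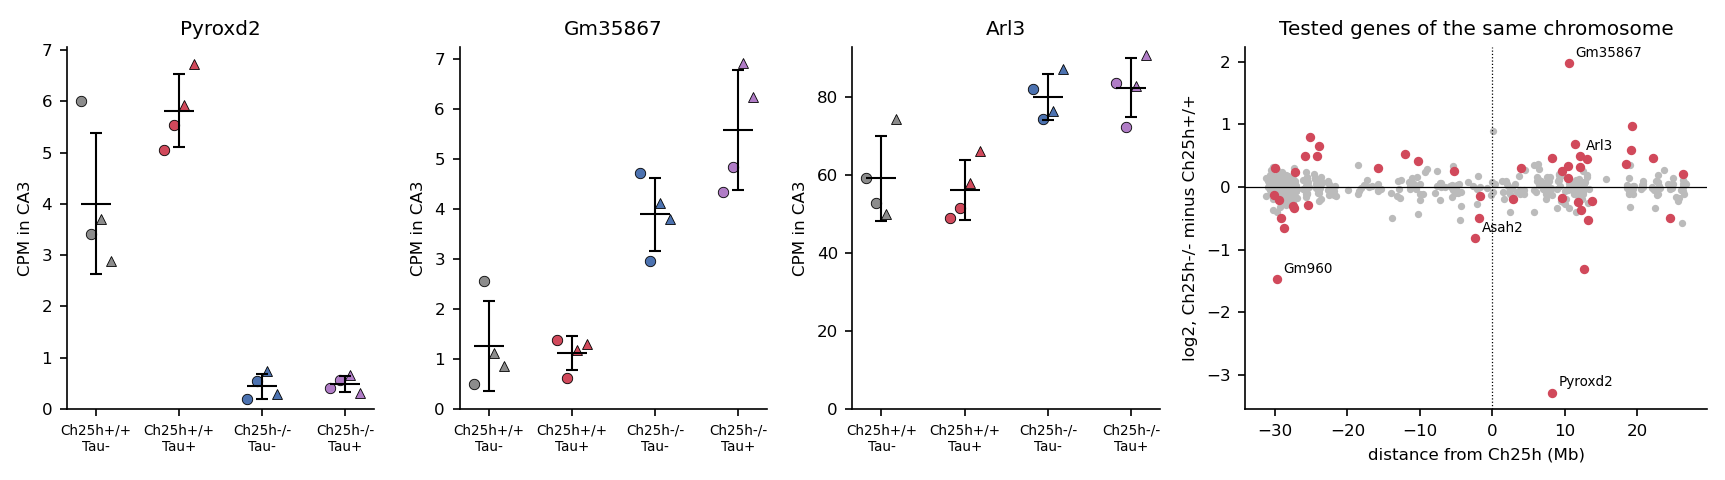
CPM in CA3 of the 3 genes called for Ch25h loss (points are libraries, circles and triangles the sides, bars mean ± SD with n = 4) and, right, the log2 change of all tested genes of the chromosome by distance from Ch25h in Mb. Red points have an unadjusted p under 0.05, and Pyroxd2, at -3.28, and Gm35867, at 1.97, lie farthest from 0.

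Interaction between tau status and Ch25h was also tested. By edgeR, 0 of 13776 genes passed (0.0%), 534 had an unadjusted p under 0.05 (3.88%), and DESeq2 called 1, Ephb1.

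The tau effect in CA3 was set against that in CA1 and DG of the same mice, with the library as a block. Against CA1, 6 of 13593 genes differed by edgeR (0.0441%). Within Ch25h+/+ mice 0 differed (0.0%; 648 at an unadjusted p under 0.05), and within Ch25h-/- mice 14 (0.103%; 1059 unadjusted). Whether the genotypes differ in this was not tested. Unc5c had a log2 change of -0.24 ± 0.054 SE in CA3 and -0.64 ± 0.085 in CA1, a difference of 0.41 ± 0.073 (edgeR adjusted p = 0.012). In CA3 it had 1558 to 1828 CPM in Tau- and 1270 to 1604 in Tau+ libraries. The gene starts 0.773 Mb from Gm43049. Tspan9, a tetraspanin, had 0.057 in CA3 and -0.70 in CA1, a difference of 0.73 ± 0.12 (edgeR adjusted p = 0.0042). Cacng3, a regulator of AMPA receptors, had -0.42 in CA3 and 0.25 in CA1, a difference of -0.67 ± 0.12 (edgeR adjusted p = 0.012). These 3 differences held without any 1 library. Those of Sox5, Lin28b and mt-Nd3 lost the call without any of 7, 2 and 1 libraries.

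Against DG, 20 of 14179 genes differed in the tau effect (0.141%), with 3 within Ch25h+/+ (0.0212%) and 19 within Ch25h-/- mice (0.134%). The presynaptic glutamate receptor Grm8 had a log2 change of -0.66 ± 0.16 SE in CA3 and 0.20 ± 0.19 in DG, a difference of -0.89 ± 0.13 (edgeR adjusted p = 0.015). Nos1ap, an adaptor of neuronal nitric oxide synthase, had 0.20 in CA3 and -0.15 in DG, a difference of 0.36 ± 0.067 (edgeR adjusted p = 0.015). Nckap5 had 0.11 and -0.52, and Gm10649 -0.35 and -0.81. The differences of Grm8, Nos1ap, Nckap5 and Gm10649 held without any 1 library. The other 16 of the 20 lost the call without at least 1 library, from Gm44148 (1 library) to Sema6a (any of 13). Pnmal2 fell by 0.82 in CA3 and had -0.30 in DG (edgeR adjusted p of the difference = 0.036), and this call was lost on leaving out any of 9 libraries.

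For Ch25h loss, 0 genes differed between CA3 and CA1 by edgeR (0.0%; 581 at an unadjusted p under 0.05) and 2 between CA3 and DG (0.0141%). Gm960 had a log2 change of -1.47 ± 0.25 SE in CA3 and -0.12 ± 0.18 in DG, a difference of -1.30 ± 0.18 (edgeR adjusted p = 1.3e-04). Its DG medians were 25.3 and 24.5 CPM.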

How the data were processed

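Nuclei of 16 hippocampi were sequenced with the 10x 3' kit, version 3.1, per the labels' protocols. The deposited files hold the authors' raw UMI counts for 32285 genes and all barcodes. Per the submitters' processing notes reads were aligned to mm10 with Cell Ranger 3.1.0, while the file headers name version 4 of the software. The annotation and the treatment of intronic reads are not given in the sources used here. Positions of genes come from GENCODE M21 (GRCm38), in which 32158 identifiers were found.

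Barcodes with 500 UMIs, 300 genes and at most 5% mitochondrial UMIs were kept as nuclei. CA1 nuclei needed 2 or more UMIs of Fibcd1 and at most 1 of Prox1. DG nuclei needed 3 or more of Prox1 and at most 1 of Fibcd1. Both needed 1 or more of Slc17a7, with at most 1 of Gad1 and Gad2 together and of Iyd and Rerg together. Grik4, Nectin3 and Ccbe1 were not limited in them. Scrublet (scanpy 1.11.5) scored doublets, which were kept. Free RNA was read from barcodes under 100 UMIs. Counts were summed per library and class, so the mouse was the replicate, and p-values weigh group differences against the spread between mice. In the main CA3 fits this spread includes that between the 2 sides of the split. The 10 genes of the rule were left out of the tests. EdgeR 4.0.16 (R 4.3.3) was run with TMM factors, its filter on low counts and the robust quasi-likelihood test, with Benjamini-Hochberg adjustment over all genes tested and a threshold of 0.05. Scripts were tested on simulated data. Fold changes are fitted log2 values, and CPM of CA3 genes in the tests use TMM library sizes. Alternatives were DESeq2 1.42.0, RLE factors, no filter, a stricter rule, no doublets, thinning to 5000 UMIs, each library left out, and the side of the split.

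The members and lists were chosen with earlier results of these data known. Named were, per comparison, up to 10 called genes each way without overlap between the groups, filled up to 10 by smallest p, up to 4 members of each list, the 25 genes higher and 10 lower in CA3 of largest ratio, the 20 of largest spread between nuclei, and a fixed set from earlier results. Other named genes were chosen after their values were seen. Some results are not reported here.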

Additional observations from a re-analysis of the deposited data

Results flagged for a closer look

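In 7 of 108 groups of 4 libraries, 1 library lay far from the other 3 by Dixon's criterion, and chance alone marks about 1 group in 20. The median UMIs per CA3 nucleus of Ch25h+/+ Tau+ replicate 2 were 17982, against 14143.5 to 14654 in the others of its group. Gm32754 had 8.30 CPM in Ch25h+/+ Tau+ replicate 3, against 6.43 to 6.56. Pnmal2 had 16.3 CPM in Ch25h+/+ Tau+ replicate 4, against 12.6 to 12.9. C4b had 0.285 CPM in Ch25h+/+ Tau- replicate 2, where the others were at 0. With the other 3 libraries at 0, any value above 0 meets the criterion, and the rate of 1 in 20 does not hold there. Gm11417 had 27.5 CPM in Ch25h+/+ Tau- replicate 3, against 36.3 to 37.6. Gm960 had 11.2 CPM in Ch25h+/+ Tau+ replicate 1, against 21.3 to 23.4, and 10.97 CPM in Ch25h-/- Tau+ replicate 2, against 6.54 to 6.81.

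The tau effect over both genotypes differed between CA3 and CA1 for 6 genes by edgeR's test of the difference itself. The differences (CA3 minus CA1, log2) were 0.41 for Unc5c, 0.73 for Tspan9, 0.60 for Sox5, -0.67 for Cacng3, -1.10 for Lin28b and -1.28 for mt-Nd3. Against DG it differed for 20 genes. The CA3 value was higher than the DG value by 0.43 for Hdac4, 0.62 for Nckap5, 0.36 for Nos1ap, 0.26 for Cacnb2, 1.02 for Sulf2, 1.68 for Col9a3, 0.39 for Stard13, 0.26 for Ctnna2, 1.596 for B230110G15Rik, 0.43 for Gm10649, 0.38 for Opcml, 0.32 for Bcl11a and 0.44 for Chrd. The difference was -0.59 for Grm3, -0.89 for Grm8, -1.996 for Gm44148, -0.54 for Pnmal2, -1.18 for Moxd1, -0.50 for Satb1 and -0.94 for Sema6a. The effect of Ch25h loss differed from that in DG by -1.30 for Gm960.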

How the results depend on the processing

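DESeq2 called 5 genes for tau status in Ch25h+/+ mice, 20 in Ch25h-/- mice and 47 over both, and for Ch25h loss 4 in Tau- mice and 8 over both states, with 1 for the interaction. Without the filter on low counts the tau counts were 7, 8 and 26 and that of Ch25h loss in Tau- mice 2, and the differences from CA1 rose to 59 for tau status and 9 for Ch25h loss, those from DG to 136 and 6. With the side of the split as a block the tau counts were 4, 9 and 51. On side A alone tau status over both genotypes gave 19 genes and Ch25h loss 0 in Tau+ and 0 in Tau- mice. On side B alone the tau counts were 11, 15 and 21, with 2 for Ch25h loss in Tau- mice, 5 over both states and 1 for the interaction. The stricter rule gave 1 gene for Ch25h loss in Tau+ and 0 in Tau- mice, and a fit of only the groups compared 0 in Tau- mice. The cause of these shifts was not tested. Over both genotypes tau status gave 4 higher and 1 lower gene, 16 and 35 with the block and 18 and 29 with DESeq2.

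The difference in the share of CA3 nuclei changed sign under the stricter rule for tau status in Ch25h-/- mice (0.0771 percentage points) and over both genotypes (0.241), and after thinning to 5000 UMIs for Ch25h loss in Tau+ mice (-0.00897) and tau status over both genotypes (0.0223). None of these differences had passed its test.

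Leaving out 1 library at a time, the genes called for tau status were 2 to 3 in Ch25h+/+ mice, 3 to 6 in Ch25h-/- mice and 3 to 12 over both (3 on dropping Ch25h+/+ Tau+ replicate 2 or, of the Ch25h-/- Tau- mice, replicate 3, 12 on dropping Ch25h+/+ Tau+ replicate 3, and 8 on dropping replicate 4 of Ch25h+/+ Tau-). For Ch25h loss they were 1 to 2 in Tau+ mice (1 without any of 6 libraries: Ch25h+/+ Tau+ replicates 1 to 4 and Ch25h-/- Tau+ replicates 3 and 4), 1 to 2 in Tau- mice (2 without replicate 1 of either group) and 2 to 5 over both (5 without Ch25h+/+ Tau- replicate 1), and 0 to 0 for the interaction. The differences from CA1 were 4 to 29 for tau status (29 without Ch25h-/- Tau- replicate 1, 25 without Ch25h+/+ Tau- replicate 1, 10 or 11 without Ch25h+/+ Tau- replicates 3 or 4 or Ch25h-/- Tau+ replicates 1 or 2) and 0 to 1 for Ch25h loss. Those from DG were 7 to 33 (33 without Ch25h-/- Tau+ replicate 3, 7 to 9 without Ch25h-/- Tau- replicates 3 or 4, Ch25h+/+ Tau+ replicate 2 or Ch25h+/+ Tau- replicate 2, 12 or 13 without Ch25h+/+ Tau- replicates 3 or 4, Ch25h-/- Tau+ replicate 2 or Ch25h-/- Tau- replicate 2) and 1 to 3 for Ch25h loss (1 without Ch25h-/- Tau- replicate 1).

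Likewise the share differences ranged from 0.158 to 0.522 for tau status in Ch25h+/+ mice, -0.630 to -0.0119 in Ch25h-/- mice and -0.151 to 0.158 over both, and for Ch25h loss from -0.0372 to 0.442 in Tau+ mice, 0.594 to 1.20 in Tau- mice and 0.424 to 0.725 over both. The log2 ratio to CA1 ranged from -0.50 to -0.090, -0.48 to -0.11 and -0.41 to -0.19 for tau status and from -0.12 to 0.30, -0.045 to 0.29 and -0.0069 to 0.20 for Ch25h loss, in the same order. The median UMIs ranged from 1363 to 2643, 498.5 to 2371 and 1381.5 to 2318 for tau status and from 422 to 2354, 1731 to 2889 and 1305 to 2271 for Ch25h loss. The log2 ratio of summed interferon-stimulated genes ranged from 0.45 to 0.65, of cholesterol genes from -0.19 to -0.13 and of respiratory chain genes from -0.10 to -0.070. On sides A and B alone the cholesterol ratio was -0.23 and -0.10 and the respiratory chain ratio -0.011 and -0.16, beside -0.16 and -0.086 over all libraries. These alternatives for list sums were chosen after seeing the data.

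For single genes, 1941 values under alternatives kept their direction and their side of the threshold, 70 came to pass it, 206 no longer passed it and 0 reversed. The 1941 include values that passed in neither fit. The genes were chosen in the same data as called or of smallest p, and the alternatives share libraries with the main fit. The counts are therefore no independent check. Mice could not be paired across groups, because replicate numbers follow only the order of accession. The sides of the split hold replicates 1 and 2 and replicates 3 and 4 of every group, and the side as a block moved the tau count over both genotypes from 5 to 51. Genes under the filter were tested only in the fit without it, where 4930590L14Rik (edgeR adjusted p = 1.1e-07) and Trim34a (edgeR adjusted p = 0.018) passed for tau status over both genotypes.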
